A study of Drosophila melanogaster with 4 samples.

Results

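Transcripts represented by cDNA clones of a Drosophila melanogaster larva and early pupa library were followed in larvae mutant for Hdac1. The array design names 25778 different targets apart from its control spots. Of these, 40 carry the name of a clone of that library, written as LP and 5 digits, and these 40 clones were described. The rule that picked them used the name alone and no measured value, but it was set with earlier results of these data known. They were read by 44 probes on 51 spots, 4 clones having 2 probes and 7 probes having 2 spots.

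The mutant larvae carried the alleles Hdac1[303] and Hdac1[def8] over each other in the Oregon-R background, and the others were Oregon-R wild type. Both were grown at 25 °C and harvested at the 3rd instar, the last larval stage before the pupa. Neither the tissue nor the number of larvae per sample is given in the labels. On each of 4 Agilent 2-colour arrays, labelled biological replicates 1 to 4, mutant cDNA (Alexa Fluor 647, red) and wild type cDNA (Alexa Fluor 555, green) were hybridised together. The dyes were not swapped, so genotype and dye cannot be told apart.

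Hdac1 encodes a histone deacetylase, an enzyme that removes acetyl groups from histones and acts in several corepressor complexes. Near the end of the 3rd instar, pulses of the steroid hormone ecdysone start metamorphosis, and larval tissues and imaginal discs change their transcripts on a tight schedule. A library made from larvae and early pupae samples transcripts of that period. A clone of it shows that a transcript was once found there, not that the transcript is restricted to that stage.

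A reference gene table paired 5 of the 40 clones with a gene. LP07339 belongs to LysE, which encodes a digestive lysozyme of larvae, LP07735 to Ald1, a fructose bisphosphate aldolase gene of glycolysis, and LP07955 to Cad86C, which encodes a cadherin, a member of a family of cell adhesion proteins. LP08165 belongs to CG31775, a protein-coding gene known by number only, and LP05669 to CR30029, listed as a pseudogene. LysE lies on chromosome arm 3L, Ald1 and Cad86C on 3R, CG31775 on 2L and CR30029 on 2R. The other 35 clones had no gene in the table and are given by clone name.

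The median spot on an array had an intensity of 1490 to 1970.5 for the mutant and of 316 to 504.25 for wild type, and 0 spots were saturated on any array. No target could be paired with Hdac1 itself (0 targets), so the mutation was not checked by its own transcript. The labelled stage could not be checked either, because 0 of 39 larval and pupal stage genes could be named on the array. The gene table paired only 270 of 25778 targets with a gene, so genes that could not be named may still be on the array. Of 13 male and germ line RNAs, 2 could be named, the male-specific noncoding RNAs roX1 and roX2 of dosage compensation. The 2 roX2 targets stood at -1.17 ± 0.32 and -2.19 ± 0.57 and the 2 roX1 targets at -0.49 ± 0.43 and -0.63 ± 0.29 (log2 of mutant over wild type, SD, n = 4). The part of a different sex ratio in the results below was not tested.

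Most of the clones were detected in both genotypes. Between 34 and 38 of the 40 clones were well above background on an array in the mutant channel, which is 85% to 95%, and 35 or 36, or 87.5% to 90%, in the wild type channel. For all other targets the shares were 82.3% to 85.01% in the mutant channel and 82.5% to 84.2% in the wild type channel. In both channels and on 4 of 4 arrays, 34 clones were well above background. None of the 40 (0 clones) was detected on 4 of 4 arrays in one genotype and on none in the other. On every array LP06455 and LP10544 stayed below that level in both channels.

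A target was tested where 1 of its channels stood well above background on 3 arrays or more, which left 36 clones. In limma, with Benjamini-Hochberg adjustment over 21944 targets and a threshold of 0.05, 29 of the 36 (80.6%) differed, 16 higher and 13 lower in the mutant. Over all targets 75.5% passed the same test, 38.1% as higher and 37.5% as lower, so the share of clones called is close to that of all targets and is not particular to them. At a change of at least 2-fold, 8 clones were higher and 8 lower, or 22.2% each way, against 11% of all targets higher and 16.3% lower. At 4-fold, 2 clones were higher and 1 lower, against 1.59% and 4.87% of all targets. No test was made of these differences in share.

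The clones moved both ways, and their median lay near that of all other targets. Their median log2 ratio was 0.013, against 0.022 for all other targets, and their quartiles lay at -0.59 and 0.91, against -0.65 and 0.55. The median size of a change, whatever its sign, was 0.84 for the clones and 0.59 for the other targets. With each array centred on its median instead of by loess, which follows the signal strength, the medians were 0.33 for the clones and 0.13 for all targets. Unless stated otherwise, ratios below are log2 values of mutant over wild type after loess, which centres each array on its own transcripts.

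**Figure D1:**
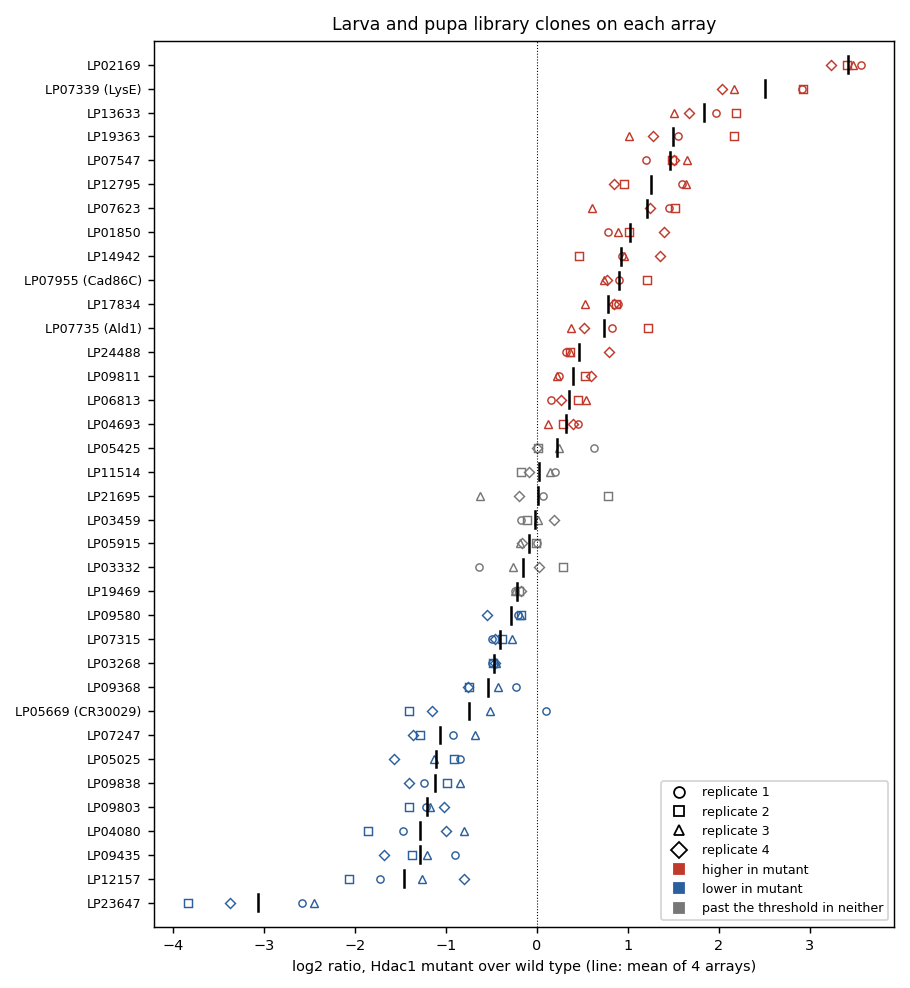
Log2 ratio of mutant over wild type for each of the 36 tested clones, 1 symbol per array and a line at the mean of the 4 arrays, coloured by the call in limma. The means run from 3.42 for LP02169 down to -3.06 for LP23647, and 7 clones around 0 passed the threshold in neither direction.

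LP02169 had the highest mean ratio of the 40 clones. Its normalized log2 signal was 12.75, 12.45, 12.50 and 12.57 in the mutant on replicates 1 to 4, against 9.19, 9.04, 9.04 and 9.34 in wild type. The mutant signals lay far above the wild type ones on every array and the ranges did not overlap. The log2 ratio was 3.42 ± 0.14 with little spread between arrays, a 10.7-fold rise (limma adjusted p = 1.42e-08, SD, n = 4). The 4 ratios ran from 3.23 on replicate 4 to 3.56 on replicate 1. In RNA pooled from many cells, here and below, a change in the number of cells of a type and a change of RNA per cell cannot be told apart.

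LysE came next. Its clone LP07339 had log2 signals of 16.70, 16.69, 16.76 and 16.63 in the mutant, against 13.79, 13.76, 14.59 and 14.59 in wild type. The mutant signals were nearly level across arrays and the wild type ones fell into a lower and a higher pair. The log2 ratios were accordingly 2.91 and 2.93 on replicates 1 and 2 and 2.17 and 2.04 on replicates 3 and 4. Their mean was 2.51 ± 0.47, a 5.70-fold rise (limma adjusted p = 7.35e-07), and 3.34 with median centring. The lysozyme genes of this cluster are close copies of each other, and the probe may read more than LysE. Of 18 digestive genes of the larval gut looked for, LysE was the 1 that could be named, so its rise describes no other gut gene.

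LP13633 rose 3.56-fold. Its signals were 11.80, 12.07, 12.06 and 11.78 in the mutant, against 9.83, 9.88, 10.56 and 10.12 in wild type, again with no overlap. The ratios were 1.97, 2.19, 1.51 and 1.67 on replicates 1 to 4, and their mean was 1.83 ± 0.31 (SD, n = 4, limma adjusted p = 1.12e-06).

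The other 5 rises of at least 2-fold were smaller. LP19363 gave ratios of 1.55, 2.17, 1.01 and 1.27, with a mean of 1.5 ± 0.5, and 2.24 with median centring. LP07547 gave 1.20, 1.48, 1.65 and 1.51, with a mean of 1.46 ± 0.19, and 2.05 by the log ratio that the scanner software deposits. Replicate 2 was thus the highest for LP19363 and replicate 1 the lowest for LP07547. LP12795 stood at 1.59, 0.95, 1.63 and 0.84, a mean of 1.25 ± 0.41, with replicates 1 and 3 well above the other two. LP07623 stood at 1.45, 1.52, 0.60 and 1.24, a mean of 1.20 ± 0.42, with replicate 3 low. LP01850 was at 0.78, 1.01, 0.89 and 1.398, a mean of 1.02 ± 0.27, just past 2-fold, and its duplicate spots gave 0.98 and 1.06. For all 5 the mutant signals lay above the wild type ones without overlap, and the limma adjusted p ran from 1.68e-06 to 5.52e-05.

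Cad86C and Ald1 rose by less than 2-fold. The clone of Cad86C, LP07955, had log2 signals of 9.90, 10.12, 10.08 and 9.38 in the mutant, against 9.00, 8.91, 9.34 and 8.61 in wild type. Its ratios of 0.90, 1.21, 0.74 and 0.77 averaged 0.90 ± 0.21, or a 1.87-fold rise (limma adjusted p = 5.38e-05, SD, n = 4). The mutant was higher on 4 of 4 arrays, although its own replicate 4 was dimmer than the other three in both genotypes. The 2 spots of the probe gave 0.97 and 0.83.

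The clone of Ald1, LP07735, had signals of 9.88, 10.38, 9.80 and 9.77 in the mutant, against 9.06, 9.16, 9.42 and 9.25 in wild type. Its ratios were 0.82, 1.22, 0.38 and 0.52, with replicate 2 highest and replicate 3 lowest. The mean was 0.73 ± 0.37, or a 1.66-fold rise (limma adjusted p = 0.00096, SD, n = 4). Which stretch or strand of the Ald1 transcripts the probe reads was not checked.

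The remaining 6 rises lay between 0.31 and 0.93 on the log2 scale. LP14942 (0.93 ± 0.37), LP17834 (0.79 ± 0.17, and 1.43 with median centring) and LP24488 (0.46 ± 0.22) were higher on 4 of 4 arrays. LP09811, at 0.40 ± 0.19, was dim: 3 arrays had it well above background for the mutant and none for wild type. It was thus tested through the mutant channel alone, where it was higher, so its call is not independent of the rule for testing. With both channels required well above background on 4 of 4 arrays, LP09811 was left out. Of the 34 clones then tested, 15 were higher and 12 lower. The mean signals of LP09811 were 7.35 in the mutant and 6.95 in wild type (limma adjusted p = 0.00796). The lower limit computed from the dimmest detected probes equalled the estimate, so no lower limit is given. Median centring gave LP09811 a value of -0.28 without a call, and the deposited log ratio gave 1.5, so its direction rests on the scaling. LP06813 (0.35 ± 0.17) and LP04693 (0.31 ± 0.14) each lost their call when certain arrays were left out. That happened without replicate 2 (0.32) or 3 (0.29) for LP06813, and without replicate 1 (0.27) or 2 (0.32) for LP04693. With median centring LP04693 stood at 1.13.

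**Figure D2:**
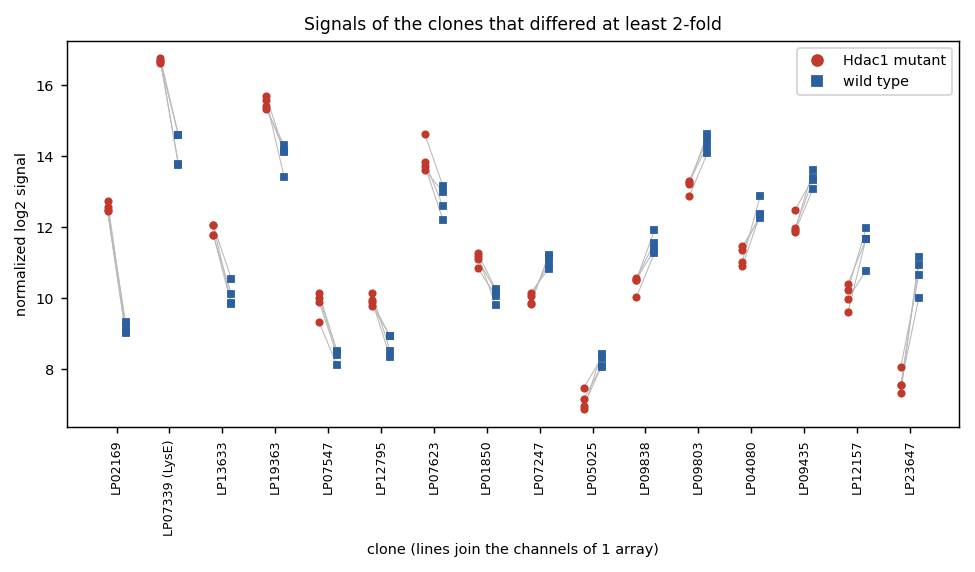
Normalized log2 signal in mutant (circles) and wild type (squares) for the 16 clones that differed at least 2-fold, with lines joining the 2 channels of an array. In each of the 16 the mutant and wild type signals of the 4 arrays do not overlap.

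Among the falls LP23647 stood apart. It had log2 signals of 8.07, 7.33, 7.57 and 7.56 in the mutant, against 10.65, 11.16, 10.02 and 10.94 in wild type, and was well above background in both on every array. The mutant signals were low throughout and below all wild type ones. The ratios were -2.58, -3.84, -2.45 and -3.37, and on average the clone fell by 3.06 ± 0.66 on the log2 scale, or 8.35-fold (SD, n = 4, limma adjusted p = 9.07e-07).

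The next falls lay between 2-fold and 3-fold. LP12157 had signals of 10.24, 9.61, 10.41 and 9.99 in the mutant, against 11.97, 11.68, 11.67 and 10.79 in wild type. Its ratios were -1.73, -2.07, -1.26 and -0.80 with a mean of -1.46 ± 0.56, and its duplicate spots gave -1.42 and -1.505. The smallest fall, on replicate 4, went with the dimmest wild type signal. LP09435 gave ratios of -0.90, -1.37, -1.21 and -1.68 with a mean of -1.29 ± 0.33. LP04080 gave -1.47, -1.86, -0.80 and -1.004 with a mean of -1.28 ± 0.48. Both were lower on 4 of 4 arrays, LP09435 most on replicate 4 and LP04080 most on replicate 2. Across LP12157, LP09435 and LP04080 the limma adjusted p ran from 1.43e-05 to 6.28e-05.

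LP07247 and LP05025 fell about as much. LP07247 gave ratios of -0.92, -1.28, -0.68 and -1.36, with a mean of -1.06 ± 0.32, and its mutant signals of 9.85 to 10.15 lay below the wild type ones of 10.83 to 11.21. LP05025 was dim, and 3 arrays had it well above background for the mutant and 4 for wild type. Its ratios of -0.85, -0.91, -1.13 and -1.57 averaged -1.11 ± 0.33, and the deposited log ratio gave -2.15. The limma adjusted p was 4.77e-05 for LP07247 and 3.73e-05 for LP05025.

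The other 2 of the 8 falls, LP09803 and LP09838, were each read by 2 probes. The brighter probe of LP09803 gave -1.21, -1.402, -1.18 and -1.02, a mean of -1.20 ± 0.16 (limma adjusted p = 4.77e-06), and -0.60 with median centring. Its dimmer probe gave -0.40, -0.54, -0.62 and -0.13, a mean of -0.42 ± 0.22 (limma adjusted p = 0.00665). Both probes of LP09803 were lower on 4 of 4 arrays, the dimmer by less. For LP09838 the brighter probe gave -1.24, -0.99, -0.85 and -1.41, a mean of -1.12 ± 0.25 (limma adjusted p = 1.7e-05). The dimmer one gave 0.38, 0.27, 0.50 and 0.48, a mean of 0.41 ± 0.11 (limma adjusted p = 0.00404). The probes of LP09838 thus passed the threshold in opposite directions, and the clone as a whole has no settled direction. Both of its probes were well above background in both channels on 4 of 4 arrays.

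The other clones with 2 probes changed little at either. LP03459 stood at -0.022 ± 0.16 at its brighter and 0.037 ± 0.20 at its dimmer probe. Both probes of LP01161, at 0.080 ± 0.049 and -0.059 ± 0.15, were too dim to be tested. For the 7 clones with duplicate spots of 1 probe, the means of the 2 spots differed by 0.0017 to 0.14. On 1 array the 2 spots differed by up to 0.24, for LP07955.

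**Figure D3:**
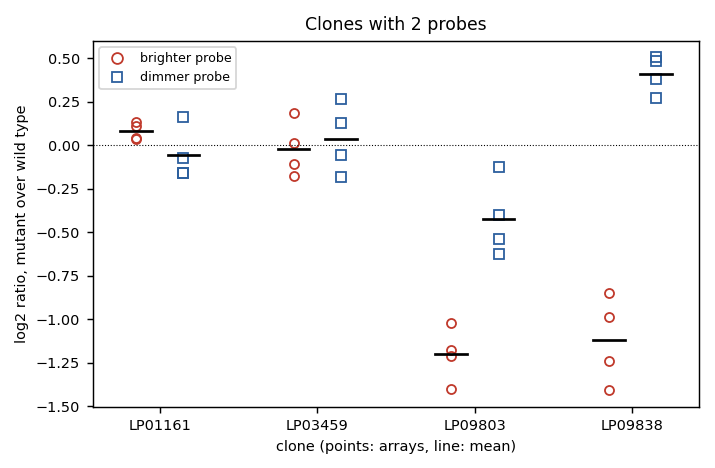
Log2 ratios of mutant over wild type on each array (points) and their mean (lines) for the 4 clones with 2 probes, the brighter probe left of the dimmer one. The probes of LP09838 lie on opposite sides of 0, at means of -1.12 and 0.41, and those of LP09803 both lie below 0.

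The pseudogene CR30029 varied widely between arrays. Its clone LP05669 had log2 signals of 14.41, 14.01, 14.26 and 14.26 in the mutant, against 14.31, 15.42, 14.78 and 15.42 in wild type. Replicate 1 was slightly higher in the mutant and the other three lower, and the signals of the genotypes overlapped. The ratios were 0.096, -1.41, -0.52 and -1.16, with a mean of -0.75 ± 0.67 (SD, n = 4, limma adjusted p = 0.00906). This call was lost without replicate 2 (-0.53) or replicate 4 (-0.61), and with median centring, where the value was -0.031. A pseudogene can share sequence with a related gene, and which transcript the probe reads was not checked.

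The remaining 4 falls lay between -0.54 and -0.28. LP03268 was the steadiest clone of all 36, at -0.49, -0.49, -0.45 and -0.46, a mean of -0.47 ± 0.020 (limma adjusted p = 0.00135). With median centring, however, it stood at -0.14 and lost its call. LP09368 (-0.54 ± 0.26), LP07315 (-0.41 ± 0.098) and LP09580 (-0.28 ± 0.18) were lower on 4 of 4 arrays, but turned to 0.12, 0.16 and 0.072 with median centring, none of them past the threshold. LP07315 (-0.26) and LP09580 (-0.23) also lost their calls with the deposited log ratio. LP03268 (-0.43) and LP09368 (-0.54) kept theirs with it. The calls of all 4 falls were thus lost with median centring, and those of LP07315 and LP09580 with the deposited log ratio too. LP09580 also lost its call when any 1 of the 4 arrays was left out, at -0.32 to -0.19.

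For 7 tested clones no difference was called, and their intervals show what could have been missed. The 4 nearest to 0 were LP21695, LP11514, LP03459 and LP05915. LP21695 gave 0.071, 0.78, -0.63 and -0.19, a mean of 0.0075 ± 0.59 with a 95% interval of -0.42 to 0.44, so the arrays disagreed on its sign. LP11514 gave 0.20, -0.18, 0.14 and -0.085, a mean of 0.019 ± 0.18 (interval -0.22 to 0.26), but passed the threshold as lower with median centring, at -0.47. The brighter probe of LP03459 gave -0.18, -0.11, 0.013 and 0.18 (interval -0.26 to 0.21). After loess these 3 clones scattered around 0. LP05915 gave -0.0026, -0.0083, -0.19 and -0.17, a mean of -0.093 ± 0.10 (interval -0.32 to 0.13). It passed the threshold as lower with median centring, at -0.57.

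The other 3 without a call were LP05425 (0.22 ± 0.30), LP03332 (-0.15 ± 0.40) and LP19469 (-0.22 ± 0.036). LP03332 had the brightest probe of the 36, with log2 signals of 16.78 to 16.96 in the mutant and 16.58 to 17.42 in wild type, and LP05425 came next. Both passed the threshold as higher with median centring, LP03332 at 0.90 and LP05425 at 1.18. LP05425 also passed it with the deposited log ratio, at 0.33. LP19469 was lower on 4 of 4 arrays, from -0.25 to -0.17 (limma adjusted p = 0.0653). It passed the threshold in 4 alternative settings, at -0.47 to -0.22.

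The 4 clones below the detection rule were not tested. The clone of CG31775, LP08165, was well above background on 1 array in the mutant and on none in wild type. Its ratios were 0.22, 0.32, 0.68 and 0.57 at signals of 6.94 to 7.37 in the mutant and 6.60 to 6.80 in wild type. It passed the threshold when no filter on dim probes was used (0.45, limma adjusted p = 0.00578). LP06455 (0.19 ± 0.14), LP01161 and LP10544 (0.051 ± 0.11) did not pass it then.

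Both rises and falls occurred among the brighter and among the dimmer clones. The 18 brighter clones, at mean log2 signals of 10.97 and above, held 8 rises, 8 falls and 2 clones without a call. The 18 dimmer ones held 8 rises, 5 falls and 5 clones without a call. Over all tested targets, whatever their signal, 38.1% were called higher and 37.5% lower. Calls were not counted by signal for all targets, so these counts are not shown to be particular to the clones. The median ratio was 0.035 in the brighter and 0.013 in the dimmer clones. Of the 36 probes, 25 were brighter than the median tested target, but brightness depends on the probe as well as on the transcript. With median centring the ratios of the 5 dimmest clones moved down, by up to -0.68 for LP09811, and those of the other 31 moved up, by up to 1.05 for LP03332.

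**Figure D4:**
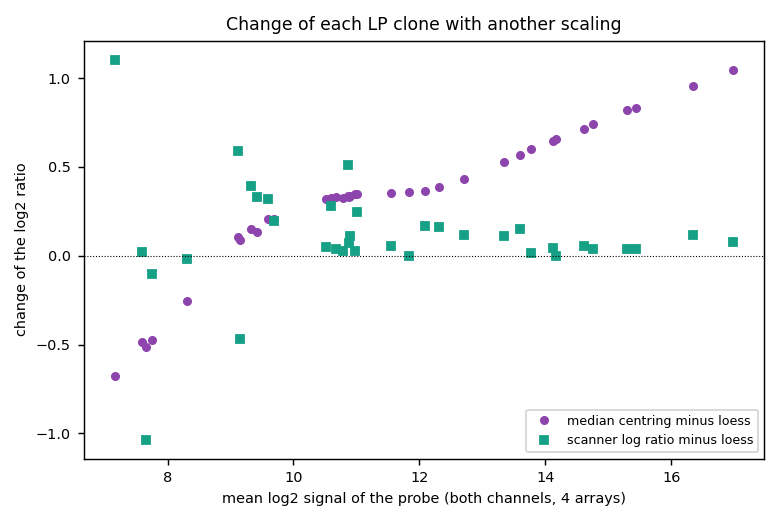
Change of the log2 ratio of each tested clone against the mean log2 signal of its probe, for median centring minus loess (circles) and the deposited log ratio minus loess (squares). With median centring the change climbs with signal, to 1.05 for LP03332, the brightest clone.

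Agreement between arrays was similar for the clones and for other targets. The ratios of pairs of arrays correlated over the 36 clones with r between 0.92 and 0.96, against 0.92 to 0.96 over all other targets, and clones on 1 array share its labelling and are not independent. The median SD between arrays was 0.26 for the clones and 0.22 for the others. The ratio had the same sign on 4 of 4 arrays for 30 of 36 clones, or 83.3%, where all targets gave 80.9%. In 26 clones the normalized signals of the 2 genotypes did not overlap, 16 above and 10 below wild type, or 72.2% against 61.9% of all targets. The 16 include LP09811, which was tested through the mutant channel alone.

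Clones of other libraries were read from the same fit. The 36 larva and pupa clones were higher in 16 cases and lower in 13, with a median of 0.013. Of 123 tested clones of an adult testis library, 35 were higher and 66 lower in the mutant, with a median log2 ratio of -0.37. Of 214 clones of embryo libraries, 104 were higher and 65 lower, with a median of 0.24, and of 60 ovary clones 18 were higher and 25 lower, at -0.070. Of 189 head clones, 81 were higher and 68 lower, at 0.089. The median of the larva and pupa clones thus lay between those of the testis and the embryo clones. Rises of at least 2-fold made up 22.2% of the larva and pupa clones, against 16.8% of the embryo, 13.8% of the head, 7.32% of the testis and 3.33% of the ovary clones. Falls of that size made up 22.2% of the larva and pupa clones as well, against 27.6% of the testis, 16.4% of the head, 13.3% of the ovary and 10.3% of the embryo clones. These differences between libraries were not tested.

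**Figure D5:**
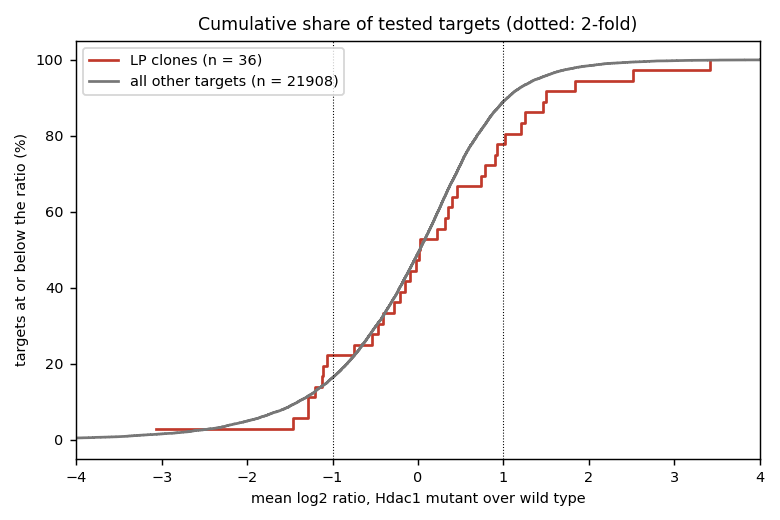
Cumulative share of the 36 tested larva and pupa clones and of all 21908 other tested targets by mean log2 ratio of mutant over wild type, with dotted lines at 2-fold. The curves run together near their medians of 0.013 and 0.022 and part above 0.5, where the clones have the larger share of rises. Called rises of at least 2-fold made up 22.2% of the clones and 11.0% of the other targets. Called falls of that size made up 22.2% and 16.3%.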

How the data were processed

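Feature Extraction 10.5.1.1 of Agilent turned the scans into values, per the file headers and the submitters' processing notes. Per spot and channel, the deposited files give the median intensity of spot and local background, and a processed intensity. The deposited log10 ratio is red over green, which is mutant over wild type by the dyes in the labels. The submitters' value table held the same log10 ratios (largest difference 0), so its scale and direction are known. Over the 21944 tested targets the median of its mean ratios was 0.10 on the log2 scale, so they were not centred on 0 there.

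Median intensities were background-corrected with normexp (offset 50) and normalized within arrays by loess, control spots at weight 0, in limma 3.58.1 (R 4.3.3). Spots marked as non-uniform were dropped (28 to 85 per array, 0 of them on LP clones). Spots of 1 probe were averaged, and each target kept its brightest tested probe. Signals per channel were taken after loess and Aquantile. The mean ratio was tested against 0 with lmFit and eBayes, two-sided. All arrays shared 1 slide and 1 scan. The fit was tested on simulated ratios. Alternatives changed the background correction, the scaling, the filter on dim probes, the choice of probe or left out 1 array.

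Per-array values are given for the clones paired with a gene, the 8 largest rises and falls, and the 4 clones nearest 0. Others are given where a setting changed their call. Gene names came from a Release 6 gene table, which paired 270 of 25778 targets. The array was annotated on an earlier assembly, so no coordinates are given. The members and lists were chosen with earlier results of these data known. The number of arrays limits the precision.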

Additional observations from a re-analysis of the deposited data

Results flagged for a closer look

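Over the 36 tested clones, 1 array stood far from the other 3 for 3 clones, where chance gives about 1 in 20, or 1.8. For LP09580 replicate 4 was at -0.55, with the others between -0.21 and -0.18. For LP24488 replicate 4 was at 0.79, with the others between 0.32 and 0.37. For LP17834 replicate 3 was at 0.53, with the others between 0.85 and 0.89. Each value is the log2 ratio on 1 array, mutant over wild type.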

How the results depend on the processing

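The population outlier marks and the dimmer probes were alternatives chosen after seeing the data. Of the 36 tested clones, 20 kept their direction and their side of the threshold under every alternative that gave them a value, 13 of them higher and 7 lower. Some alternatives could move few of their ratios or none. On the LP clones 0 spots were marked as population outliers, and the value table repeats the deposited log ratio. The mean over probes can move only clones with 2 probes. The counts of 29 called, 16 higher and 13 lower stayed within 1.5 times of themselves in each setting, from 25 to 31, 14 to 17 and 11 to 14. The 31 came without a filter on dim probes, where 40 clones were tested. The share of all targets called moved as well. It was 75.5% in the main setting, 67.1% without that filter, 67.9% with median centring and 77.4% with the deposited log ratio. With 1 replicate left out it was 69.4% to 72.7%. Of the 29 called clones, 9 lost or turned their call in at least 1 alternative. The median of the clones was 0.33 with median centring and 0.085 with the deposited log ratio and the value table, and 0.021 to 0.095 with 1 replicate left out. Its distance from the median of the other targets was -0.0086, against 0.20 with median centring and -0.0054 to 0.075 with 1 replicate left out. Median centring changed the sign of LP09811 (-0.28), LP11514 (-0.47), LP03459 (0.31), LP03332 (0.90), LP09580 (0.072), LP07315 (0.16) and LP09368 (0.12). LP03459 also turned with the deposited log ratio and the value table (0.052), the mean of its probes (0.0078) and its dimmer probe (0.037), LP09838 with its dimmer probe (0.41), and LP11514 with an offset of 10 (-0.036). With 1 replicate left out LP11514 ran from -0.040 to 0.085, LP21695 from -0.25 to 0.22, LP03459 from -0.090 to 0.029 and LP03332 from -0.30 to 0.013. The causes were not tested. Each ratio sets mutant against wild type on 1 array, so the test of the mean ratio against 0 was paired by array. Clones near background have ratios pulled towards 0.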

Other observations

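The spread of the normalized signal between arrays was set side by side in the 2 channels. For 24 of the 36 clones, or 66.7%, the SD over the 4 arrays was smaller in the mutant than in wild type, and the same held for 59.7% of all other targets. The median SD was 0.17 in the mutant and 0.24 in wild type for the clones, and 0.18 and 0.21 for the other targets. LysE showed it most plainly among the named genes, with an SD of 0.056 in the mutant and 0.47 in wild type (log2 signal, n = 4), and CR30029 had 0.16 and 0.54. Cad86C, with 0.34 in the mutant and 0.30 in wild type, and Ald1, with 0.29 and 0.15, went the other way. The mutant was red and wild type green on every array. The median spot had an intensity of 1490 to 1970.5 in red and of 316 to 504.25 in green. A difference in spread between the genotypes therefore cannot be told apart from one between the dyes. Among the 16 clones that were higher in the mutant, replicate 3 gave the lowest ratio for 8 and replicate 2 the highest for 6. Among the 13 lower ones replicate 3 gave the highest ratio for 6, so that replicate 3 often held the smallest change. The same was not counted for the other targets, so it is not shown to be particular to the clones.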
